A study of Mus musculus with 12 samples.

Results

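The set described here is 5 receptor tyrosine kinase genes of mesoderm and endothelium, chosen by symbol, out of 32285 gene IDs with counts and 32245 rows with FPKM values: Kdr, Pdgfra, Pdgfrb, Kit and Tek. All 5 were found in both kinds of measurement, and all 5 passed the filter on low counts. RNA sequencing libraries were made from mouse embryonic stem (ES) cells, described as the line E14Tg2a.IV. The groups were Smad4 knockout cells (S4KO), Smad2 and Smad3 double-knockout cells (S23DKO) and wild-type cells (WT). Each genotype was taken at day 4, as embryoid bodies formed after LIF withdrawal, and at day 0, as undifferentiated ES cells. Each of these 6 groups held 2 libraries, 12 in all. LIF is the cytokine that holds mouse ES cells undifferentiated, and embryoid bodies are floating aggregates in which several lineages arise together. Smad2 and Smad3 carry the signal of activin, Nodal and TGF-beta into the nucleus, and Smad4 is their partner, shared with the SMADs of the BMP pathway. The labels state neither the edited exons nor whether a genotype is 1 clone, and whether replicates came from separate cultures is not stated. The p-values reflect no more than the scatter of these samples, which may be technical.

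The library totals ran between 31566376 and 55806858 counts. Ribosomal protein genes took 13.8% and 10.1% of counts in the WT day 0 libraries, against 4.72% to 7.30% in the other 10. Many results that rest on WT day 0, though not all, are also given with a WT day 0 library left out. The lines differed beyond the edited genes, and the Hprt values of S4KO do not bear out the stated E14Tg2a.IV origin. Hprt, which is disrupted in the E14Tg2a line, had 169 to 212 CPM in the S4KO libraries and 0.182 to 0.724 CPM in the other 8, and S23DKO libraries had 0 to 1.39 CPM of the Y-linked Eif2s3y against 31.4 to 85.7 CPM elsewhere. Xist, the RNA that silences an X chromosome, had 33.2 to 115 CPM in S23DKO libraries and 0.839 to 9.64 CPM in the others. Any difference between a knockout and WT therefore cannot be told apart from a difference between the lines. CPM is the usual depth-scaled count, computed here on TMM-scaled library sizes. Whole-gene Smad4 counts did not check the knockout label (121 to 144 CPM in S4KO day 4 libraries and 123 to 137 CPM in WT day 4 libraries), and the edited exons are not given. Of 9 genes of undifferentiated ES cells, 4 were lower at day 4 than at day 0 in S4KO, 7 in S23DKO and 9 in WT, and none was higher. When a library was left out, 1 to 7 were lower in S4KO (1 without S4KO day 4 replicate 2), 0 to 7 in S23DKO (0 without S23DKO day 4 replicate 2) and 8 to 9 in WT, so these counts give no order of the knockouts.

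Receptor tyrosine kinases are membrane proteins that dimerise when a ligand binds, phosphorylate each other's tails and recruit effectors of the Ras-MAP kinase, PI3-kinase and phospholipase C pathways. Kdr (VEGF receptor 2) marks the mesoderm that forms endothelium and blood and is the main VEGF-A receptor there. Pdgfra, a receptor of platelet-derived growth factors (PDGF), marks paraxial mesoderm and, in the mouse blastocyst, primitive endoderm. Pdgfrb, its relative, is the PDGF-B receptor of pericytes and smooth muscle. Kit binds stem cell factor and serves blood stem cells, germ cells and melanocytes. Tek (Tie2) is the angiopoietin receptor of endothelium.

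Among them, 3 genes lie beside each other on mouse chromosome 5 (GRCm38 coordinates). Pdgfra (ENSMUSG00000029231) spans chr5:75152292-75198215 on the plus strand. Kit (ENSMUSG00000005672) spans chr5:75574916-75656722 on the plus strand, 377 kb beyond it. Kdr (ENSMUSG00000062960) spans chr5:75932827-75978458 on the minus strand, 276 kb beyond Kit. Tek (ENSMUSG00000006386) spans chr4:94739289-94874976 on the plus strand.

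The promoters of the 3 members with the most calls are shown because these genes differed most between the days. Each is the 250 bases before the RefSeq start, 5′ to 3′ on the gene's own strand (GRCm38.p6). Pdgfra is chr5:75152001-75152250 on the plus strand, Kdr chr5:75978456-75978705 on the minus strand and Tek chr4:94739039-94739288 on the plus strand. Capitals mark a SMAD box in Pdgfra (GTCTG) and GC boxes in Kdr (CCGCCC).
Pdgfra promoter: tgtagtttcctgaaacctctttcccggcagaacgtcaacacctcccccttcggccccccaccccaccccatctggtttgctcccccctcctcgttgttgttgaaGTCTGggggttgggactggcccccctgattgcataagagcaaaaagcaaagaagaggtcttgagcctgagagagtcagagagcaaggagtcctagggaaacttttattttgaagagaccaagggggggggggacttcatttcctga
Kdr promoter: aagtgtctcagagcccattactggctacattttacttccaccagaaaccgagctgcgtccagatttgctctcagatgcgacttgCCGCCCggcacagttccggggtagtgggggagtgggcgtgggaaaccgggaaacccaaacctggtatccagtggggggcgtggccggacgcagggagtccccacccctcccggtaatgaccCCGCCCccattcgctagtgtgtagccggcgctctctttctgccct
Tek promoter: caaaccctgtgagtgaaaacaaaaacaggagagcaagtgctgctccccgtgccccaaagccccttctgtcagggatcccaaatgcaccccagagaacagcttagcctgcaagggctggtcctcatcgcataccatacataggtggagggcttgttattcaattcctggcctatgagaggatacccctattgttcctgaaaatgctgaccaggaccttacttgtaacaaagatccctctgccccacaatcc
In these windows 5 motifs were searched on both strands, and no hits overlapped. They were the SMAD box CAGAC (present in 42.2% of 32851 promoters of this length), the GC-rich SMAD site GGCGCC (9.59%), the GATA site AGATAA (9.99%), the GC box GGGCGG (32.7%) and the TATA element TATAAA (12.4%). The Pdgfra window held 1 SMAD box, 146 bases before the start, and none of the other 4 motifs. The Kdr window held 2 GC boxes, at 166 and 45 bases before the start. The Tek window held none of the 5. Kdr was the richest of the 3 in CpG, with 16 CpG at 61.6% GC, against 4 at 54.4% GC in Pdgfra and 2 at 51.2% GC in Tek, beside a median of 6 over all promoters. The Kit promoters from its 2 RefSeq starts held 17 and 18 CpG at 70.8% GC and 1 GC box each. A match says only that the letters are present.

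In WT cells the LIF withdrawal was accompanied by a rise of Pdgfra and Kdr and a fall of Tek. In both knockouts Pdgfra and Kdr already stood above WT at day 0. At day 4 S4KO embryoid bodies had 7.4-fold less Pdgfra than WT, while for Kdr no difference of either knockout from WT passed the test. Differences were tested with edgeR's quasi-likelihood test in 12 comparisons, with Benjamini-Hochberg adjustment over 18693 genes and a call at an adjusted p below 0.05. Of the 60 pairs of gene and comparison 16 were called, and none of the 18 with a log2 fold change under 0.5 in size.

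The count of called members is read against the share of all tested genes called. For day 4 against day 0, 3 of 5 members were called in WT, where 43.6% of genes were, 2 of 5 in S23DKO, where 7.03% were, and 1 of 5 in S4KO, where 8.9% were. The WT count is thus near what its background gives. At day 0, 3 of 5 were called in S4KO against WT (19.6% of genes) and 2 of 5 in S23DKO against WT (31.0%). At day 4, 1 of 5 was called in S4KO against WT (1.73%) and 0 of 5 in S23DKO against WT (15.2%, and 5692 genes at an unadjusted p below 0.05). In S4KO against S23DKO 1 of 5 was called at day 0 (5.53%) and 1 of 5 at day 4 (12.3%). For the difference between the day 4 minus day 0 changes, 1 of 5 was called in S23DKO against WT (6.1%), 1 of 5 in S4KO against WT (0.15%) and 0 of 5 in S4KO against S23DKO (0.00535%). Pdgfra was the one member called between S4KO and WT at day 4, between the knockouts at either day, and in both change differences to WT.

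**Figure D1:**
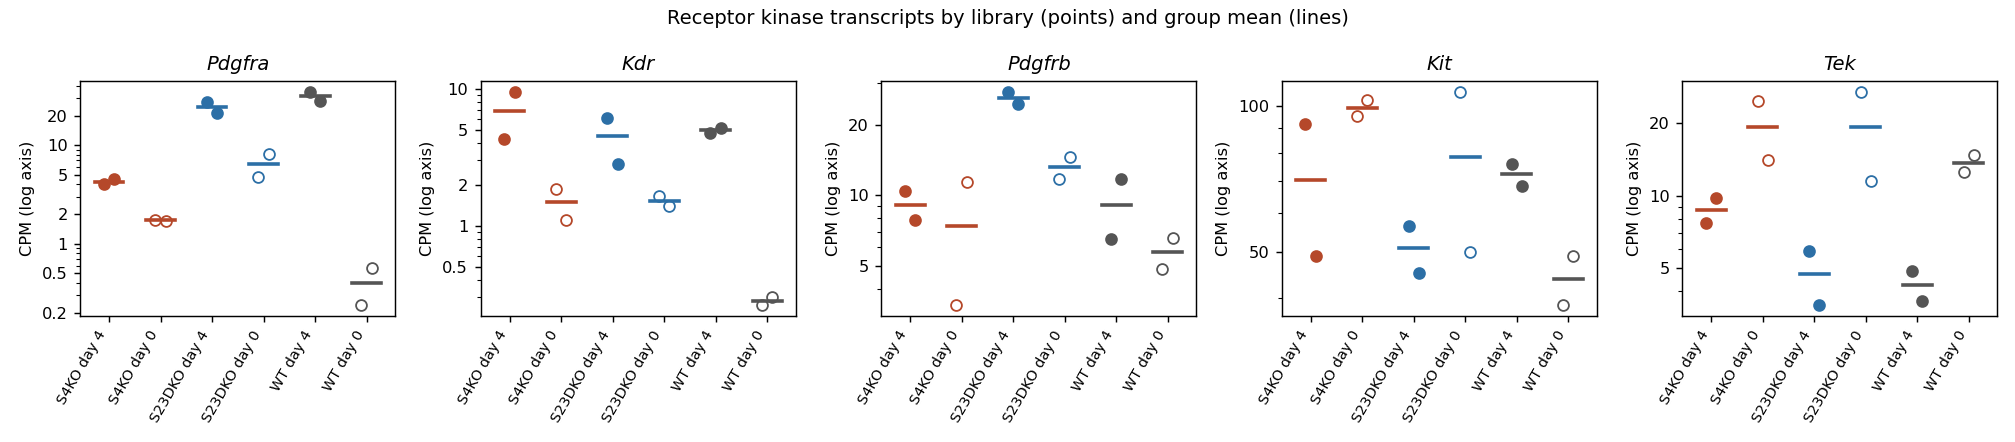
Level of each receptor gene in CPM (log axis) in the 6 groups, with 1 point per library, filled for day 4 and open for day 0, and a line at the group mean. Pdgfra spans 0.24 CPM in a WT day 0 library to 34.9 CPM in a WT day 4 library, while Kit stays between 38.8 and 107 CPM.

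Pdgfra showed the widest range of the set. It had 34.9 and 28.3 CPM in the WT day 4 libraries, against 0.24 and 0.562 CPM (10 and 26 counts) in the WT day 0 libraries. The WT groups were far apart, with the lowest and the highest levels of the study. The level was 77.6-fold higher at day 4 (log2 fold change 6.28 ± 0.46 SE, edgeR adjusted p = 4.81e-05), and the call was kept in 23 of 23 alternatives. By p-value this was gene 8 of 18693 in that comparison. In bulk RNA, more cells of a type and more RNA per cell cannot be told apart.

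S23DKO cells also had more Pdgfra after differentiation, by a smaller factor. The libraries gave 27.4 and 21.1 CPM at day 4 and 4.73 and 8.18 CPM at day 0. Day 4 was above day 0 in both libraries, and the day 0 level was already above that of every S4KO and WT day 0 library. The rise was 3.75-fold (1.91 ± 0.37, adjusted p = 0.0159). The rise missed the threshold without S23DKO day 0 replicate 1 (adjusted p = 0.0812), day 4 replicate 1 (0.112) or day 4 replicate 2 (0.0965).

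S4KO cells had little Pdgfra at either day, with 4.00 and 4.54 CPM at day 4 and 1.74 and 1.72 CPM at day 0. The 2 groups did not overlap, but the log2 fold change of 1.30 ± 0.37 missed the threshold (adjusted p = 0.0527) and passed in 7 of 24 alternatives. Set against WT, S4KO was 7.4-fold lower at day 4 (-2.89 ± 0.38, adjusted p = 0.00445). That call was kept in 23 of 24 alternatives and lost without S4KO day 4 replicate 1 (-2.81, adjusted p = 0.0534). S4KO was also 5.68-fold lower than S23DKO at day 4 (-2.51 ± 0.38, adjusted p = 0.00212, kept in 24 of 24). No difference between S23DKO and WT was called at day 4, where the lowest WT library (28.3 CPM) lay just above the highest S23DKO library (27.4 CPM).

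At day 0 the order was another. WT had the least Pdgfra of the 3 genotypes, and S23DKO the most. S23DKO was 15.9-fold above WT (3.99 ± 0.43, adjusted p = 0.000429, kept in 23 of 23) and S4KO 4.26-fold above WT (2.09 ± 0.42, adjusted p = 0.0105). Both comparisons use the same WT libraries. The S4KO difference missed the threshold with WT day 0 replicate 1 left out (1.62, adjusted p = 0.126) and without S4KO day 0 replicate 1 (0.0694), and on log2(FPKM + 1) with limma (0.359). S4KO was 3.72-fold below S23DKO at day 0 (-1.90 ± 0.38, adjusted p = 0.0153), a call lost without S23DKO day 0 replicate 2 (0.104), S4KO day 0 replicate 1 (0.0791) or S4KO day 0 replicate 2 (0.0704).

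The Pdgfra change with differentiation differed between genotypes when tested directly. The day 4 minus day 0 change, on the log2 scale, differed from the WT change by -4.37 ± 0.55 in S23DKO (adjusted p = 0.00699) and by -4.98 ± 0.56 in S4KO (adjusted p = 0.00412), so both were smaller. They share the WT libraries and rest on the low WT day 0 level. Without WT day 0 replicate 1 or replicate 2 the differences were -3.89 and -5.12 in S23DKO and -4.51 and -5.73 in S4KO. All 4 stayed below an adjusted p of 0.05. The 2 knockouts' changes were not shown to differ from each other (-0.61, adjusted p = 0.937). From high to low the Pdgfra groups ran WT day 4, S23DKO day 4, S23DKO day 0, S4KO day 4, S4KO day 0 and WT day 0, with no overlap between neighbours.

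**Figure D2:**
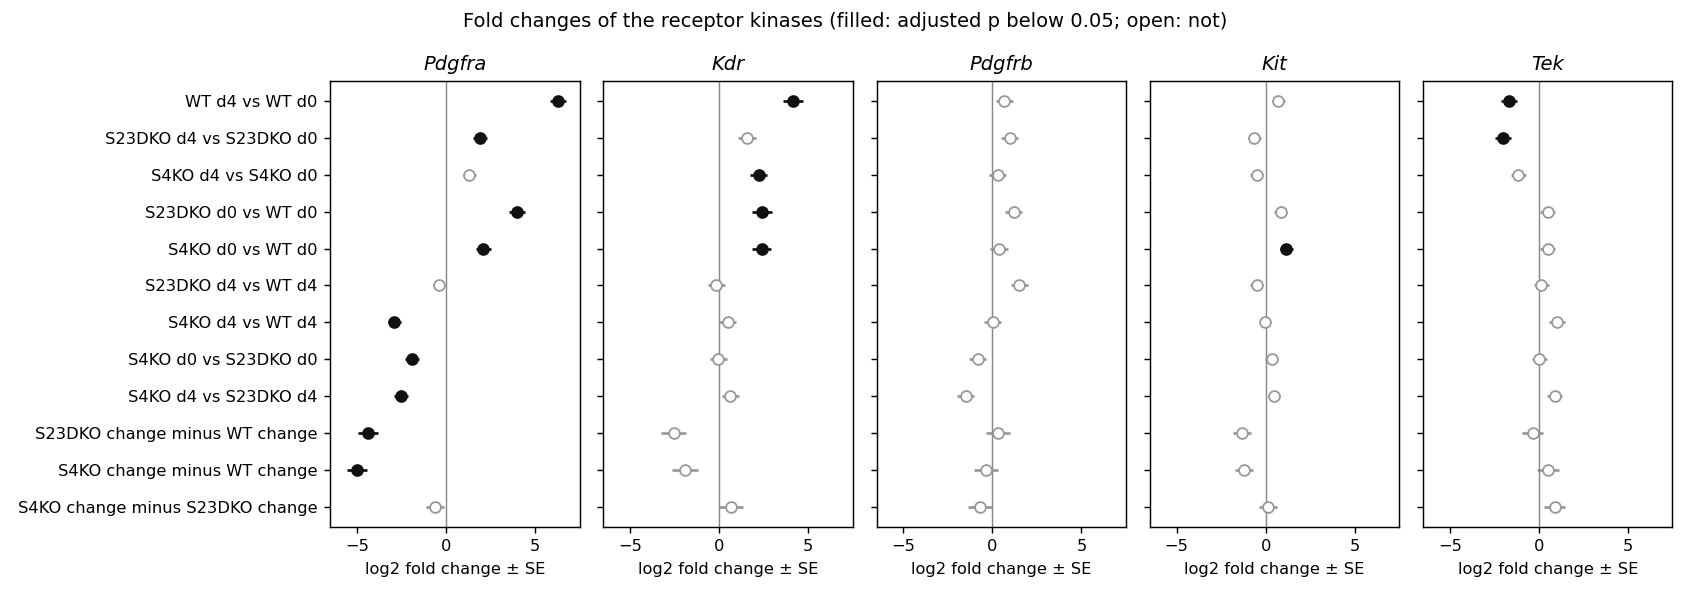
Log2 fold change of each receptor gene in the 12 comparisons, with bars of 1 standard error; filled points have an adjusted p below 0.05 with edgeR's quasi-likelihood test. Pdgfra holds 9 of the 16 filled points, Kdr 4, Tek 2 and Kit 1, and Pdgfrb holds none.

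Kdr was the other gene that was higher at day 4, from a lower level. In WT it had 4.77 and 5.19 CPM at day 4 and 0.264 and 0.303 CPM (11 and 14 counts) at day 0. The libraries of a group lay close together and the groups far apart. The rise was 17.4-fold (4.12 ± 0.56, adjusted p = 0.000432) and was kept in 23 of 23 alternatives. Without WT day 0 replicate 1 or replicate 2 its log2 value was 4.03 and 4.23, and with the length and GC correction 3.24.

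In the knockouts the Kdr libraries were more scattered. S4KO had 4.30 and 9.55 CPM at day 4 and 1.86 and 1.11 CPM at day 0. The lower day 4 library was still above both day 0 libraries, and the rise of 4.64-fold was called (2.21 ± 0.50, adjusted p = 0.0195). The call was lost without S4KO day 4 replicate 2 (1.51, adjusted p = 0.195), without S4KO day 0 replicate 2 (0.119) and in a fit of these 2 groups alone (0.0932). S23DKO had 6.18 and 2.82 CPM at day 4 and 1.64 and 1.40 CPM at day 0. These groups did not overlap either, and the change of 1.56 ± 0.49 missed the threshold (adjusted p = 0.0761).

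At day 0 both knockouts stood above WT in Kdr in every library. S23DKO was 5.34-fold higher (2.42 ± 0.55, adjusted p = 0.00861) and S4KO 5.2-fold higher (2.38 ± 0.55, adjusted p = 0.0158), both set against the same WT libraries. With WT day 0 replicate 1 left out the S23DKO call was lost (0.0833), and the S4KO call without WT day 0 replicate 1 (0.147), WT day 0 replicate 2 (0.0754) or S4KO day 0 replicate 1 (0.111). On log2(FPKM + 1) neither was called (adjusted p = 0.326 and 0.405). At day 4 the 3 genotypes overlapped, from 2.82 CPM in an S23DKO library to 9.55 CPM in an S4KO library. The change with differentiation differed from that of WT by -2.56 ± 0.72 in S23DKO (adjusted p = 0.057) and by -1.91 ± 0.72 in S4KO (adjusted p = 0.166), and neither passed the test, though the S23DKO one did in 8 of 23 alternatives, DESeq2 among them (0.00987). No Kdr difference between the knockouts was called, and the one at day 4 (0.62, adjusted p = 0.439) turned to -0.06 without S4KO day 4 replicate 2.

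Tek went the other way. WT had 4.87 and 3.66 CPM at day 4 and 12.5 and 14.8 CPM at day 0. S23DKO had 5.90 and 3.52 CPM at day 4 and 27.0 and 11.5 CPM at day 0. S4KO had 7.72 and 9.73 CPM at day 4 and 24.6 and 14.1 CPM at day 0. Every day 4 library was below every day 0 library of the study. The fall was 3.2-fold in WT (-1.68 ± 0.44, adjusted p = 0.0105) and 4.08-fold in S23DKO (-2.03 ± 0.44, adjusted p = 0.0245), and in S4KO the change of -1.15 ± 0.43 missed the threshold (adjusted p = 0.122). The WT fall missed the threshold with WT day 0 replicate 2 (0.0526) or WT day 4 replicate 2 (0.0583) left out. The S23DKO fall missed it without S23DKO day 0 replicate 1 (-1.31, adjusted p = 0.125), day 4 replicate 1 (0.082) or day 4 replicate 2 (0.217). S4KO embryoid bodies lay above every WT and S23DKO day 4 library in Tek, with a log2 difference of 1.03 ± 0.44 to WT that missed the threshold (adjusted p = 0.301). At day 0 the 3 genotypes overlapped.

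Kit was the most abundant and the steadiest. It had 91.6 and 49.0 CPM in S4KO at day 4 and 95.4 and 103 CPM in S4KO at day 0. It had 56.6 and 45.2 CPM in S23DKO at day 4 and 107 and 50.0 CPM in S23DKO at day 0. It had 76.0 and 68.4 CPM in WT at day 4 and 38.8 and 49.0 CPM in WT at day 0. Ordered by level, every neighbouring pair of the 6 groups overlapped, but groups further apart did not all do so. WT at day 0 lay below WT at day 4 and below both knockouts at day 0, without overlap. The S4KO days did not overlap, nor did S23DKO and WT at day 4. The one call was S4KO against WT at day 0, 2.25-fold higher (1.17 ± 0.36, adjusted p = 0.0431). It passed in 13 of 23 alternatives and was lost with the length and GC correction (0.67, adjusted p = 0.19). The same held when WT day 0 replicate 1 (0.262) or replicate 2 (0.11) was left out, or S4KO day 0 replicate 1 (0.149) or replicate 2 (0.0897), or either S23DKO day 4 library (0.0613). The WT difference between the days was 0.72 ± 0.36 (adjusted p = 0.125), and with the length and GC correction its sign was reversed (-0.27).

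Pdgfrb (ENSMUSG00000024620, chr18:61045150-61085061 on the plus strand) was highest in S23DKO embryoid bodies. It had 27.6 and 24.4 CPM in S23DKO at day 4 and 11.7 and 14.6 CPM in S23DKO at day 0. It had 10.4 and 7.84 CPM in S4KO at day 4 and 3.42 and 11.4 CPM in S4KO at day 0. WT had 6.49 and 11.7 CPM at day 4 and 4.84 and 6.59 CPM at day 0. Both S23DKO day 4 libraries were above all others, and S4KO and WT overlapped at each day. None of its 12 comparisons was called. S23DKO against WT at day 4 came nearest, with 2.86-fold more (1.52 ± 0.48, adjusted p = 0.0557), and passed in 11 of 24 alternatives, among them the fit with the replicate number as a block (1.59, adjusted p = 0.0365). S4KO against S23DKO at day 4 gave -1.51 ± 0.48 (adjusted p = 0.0649) and passed in 9 of 24. At day 0 S23DKO differed from WT by 1.20 ± 0.48 (adjusted p = 0.0796), which passed in 8 of 23 alternatives, DESeq2 among them (0.0312).

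Levels of different genes can be compared per length, within a group, on the FPKM scale that the authors deposited. Kit had the highest mean FPKM of the 5 in every group, from 9.30 in WT day 0 to 19.5 in S4KO day 0. Second place changed hands. In WT it was Pdgfra at day 4 (5.46 and 4.47 FPKM), with Pdgfrb at a mean of 1.68 FPKM and Tek at 0.926 FPKM behind it, and Tek at day 0 (mean 2.60 FPKM), with Pdgfrb at 0.917 FPKM. In S23DKO embryoid bodies Pdgfrb had a mean of 5.17 FPKM beside 4.72 and 3.59 FPKM of Pdgfra. In S4KO embryoid bodies Tek (mean 2.01 FPKM) and Pdgfrb (1.71 FPKM) were both above Pdgfra (0.603 and 0.666 FPKM). FPKM summed to 653671 and 587192 in the WT day 0 libraries and to 434797 to 516124 in the other 10, so these values are not compared between groups.

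**Figure D3:**
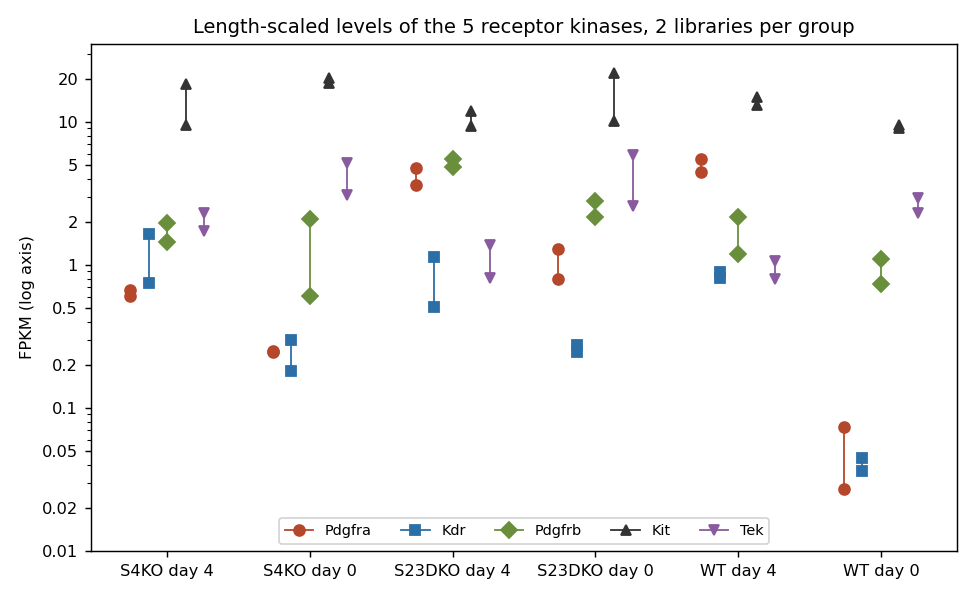
FPKM as deposited (log axis) of the 5 receptor genes within each group, with 1 point per library and a line that joins the 2 libraries. Kit is the highest of the 5 in each group, at a mean of 13.9 FPKM in S4KO day 4, 10.6 FPKM in S23DKO day 4 and 9.30 FPKM in WT day 0.

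Over the 12 libraries Pdgfra and Kdr were the pair most alike (Pearson r of log2 CPM 0.80), and Pdgfra and Tek the pair most opposed (-0.70). Kit had no r above 0.36 in size with any other member. These are descriptions over libraries that share genotype and day. By the same measure among 14061 genes, Sp140 (0.983) and Tgfbr3, a TGF-beta coreceptor (0.98), were most like Pdgfra. Lpcat1 (0.974) and Ptpn11, the phosphatase SHP2 that acts below these receptors (0.968), were most like Kdr. Eps8l2 (0.969) was most like Pdgfrb, Gnpda1 (0.907) most like Kit and Adam23 (0.94) most like Tek.

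Of 11 ligand genes 9 were tested, and Angpt1 and Angpt4 were too low. Stem cell factor and VEGF-A stood out in S23DKO embryoid bodies. Kitl, the ligand of Kit, had 39.6 and 41.5 CPM in S23DKO day 4 libraries against 8.46 and 3.81 CPM in WT day 4 libraries. The groups were far apart, and the difference was 2.72 ± 0.40 on the log2 scale (adjusted p = 0.00155). At day 0 Kitl had 7.8 and 12.6 CPM in S23DKO libraries, 5.76 and 3.69 CPM in S4KO libraries and 1.25 and 1.32 CPM in WT libraries. Both knockouts were above WT (2.99 ± 0.42, adjusted p = 0.00146, in S23DKO, and 1.88, adjusted p = 0.0132, in S4KO), and the S4KO call was lost without S4KO day 0 replicate 1 (0.112), WT day 0 replicate 1 (0.135) or WT day 0 replicate 2 (0.0661). Kitl was also higher at day 4 than at day 0 in WT (2.26 ± 0.41, adjusted p = 0.00165), so that the ligand rose where its receptor Kit did not pass the test.

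Vegfa, the ligand of Kdr, had 180 and 172 CPM in S23DKO day 4 libraries, against 37.8 and 54.0 CPM in WT day 4 libraries. S4KO day 4 libraries lay between them, at 79.5 and 64.6 CPM. The S23DKO difference to WT was 1.94 ± 0.26 (adjusted p = 0.000993). Pdgfa, a ligand of Pdgfra, had 44.7 and 38.1 CPM in S23DKO at day 4 and 9.24 and 18.6 CPM in WT at day 4 (1.57, adjusted p = 0.0193, lost without S23DKO day 4 replicate 1 at 0.0947, S23DKO day 4 replicate 2 at 0.0624 or WT day 4 replicate 1 at 0.0918). In that comparison, where 15.2% of all genes were called, 3 of the 9 ligands were higher and 0 lower. Their median log2 fold change was 0.78 against -0.03 over all genes. In S4KO against WT at day 4 none was called (median 0.65). Only 1.73% of all genes were called there, so this count is what the background gives.

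With differentiation the means of Pdgfc and Vegfc fell in all 3 genotypes, and Pdgfa was called lower in WT. Pdgfc, another Pdgfra ligand, had 3.63 and 2.93 CPM in WT at day 4 and 24.3 and 26.0 CPM in WT at day 0. The fall was called in WT (-2.94 ± 0.46, adjusted p = 0.00079), in S23DKO (-3.05, adjusted p = 0.00726) and in S4KO (-2.53, adjusted p = 0.00814). In S23DKO it was lost without either day 4 library (0.0624 and 0.0954) and in S4KO without day 4 replicate 2 (0.0828). Vegfc, a ligand of Flt4 and Kdr, fell in WT (-2.43, adjusted p = 0.0129, lost without day 4 replicate 1 at 0.0559 or replicate 2 at 0.062), and Pdgfa fell in WT (-1.63, adjusted p = 0.00635). In WT 1 ligand gene was thus higher and 3 lower at day 4 (median -0.67, all genes 0.08). There 43.6% of all genes were called, so this count is near what the background gives. Between the days 2 ligands were called lower in S23DKO and 1 in S4KO. Vegfc averaged 0.89 CPM at day 4 and 5.68 CPM at day 0 in S23DKO, where the day 0 libraries had 1.49 and 9.88 CPM. In S4KO it averaged 3.78 CPM at day 4 and 16.2 CPM at day 0.

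**Figure D4:**
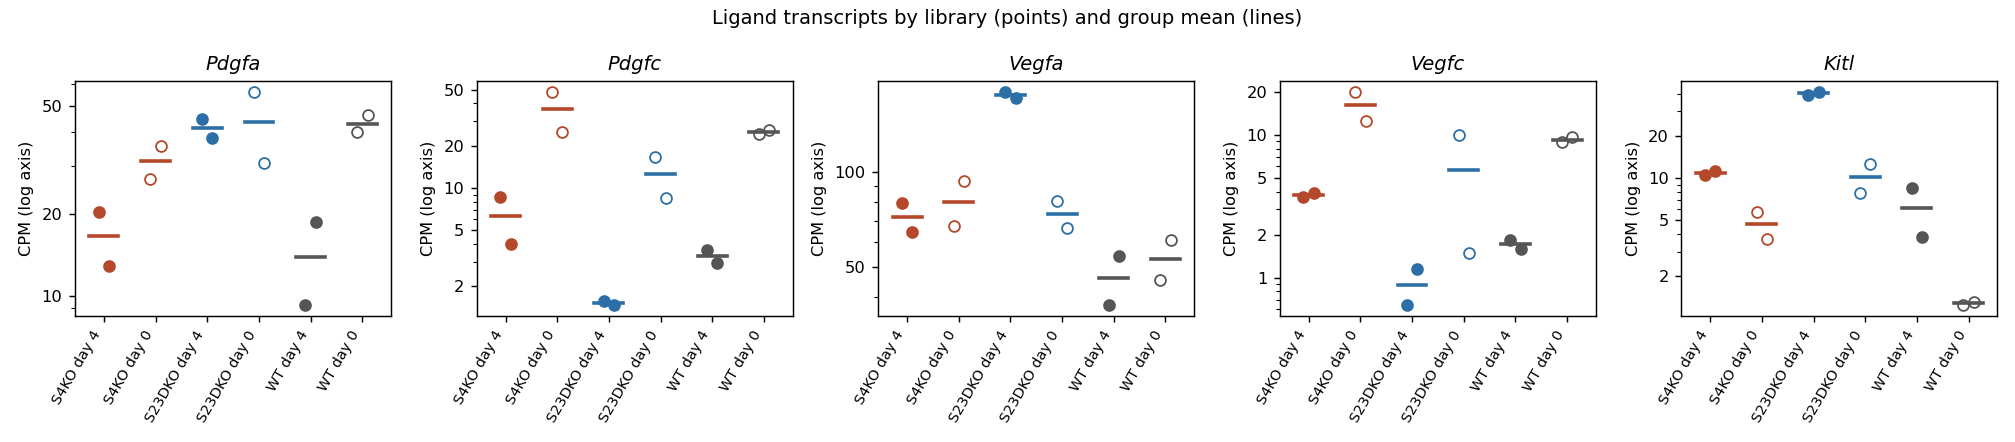
Level in CPM (log axis) of 5 ligand genes in the 6 groups, with 1 point per library and a line at the group mean. Kitl and Vegfa reach their highest values in the S23DKO day 4 libraries, at 39.6 and 41.5 CPM and at 180 and 172 CPM.

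Among 7 related receptors, Flt1 (VEGF receptor 1) had the largest called change in WT. It had 50.6 and 45.7 CPM in WT at day 4 and 0.935 and 1.71 CPM in WT at day 0. It was higher at day 4 in WT (5.18 ± 0.40, adjusted p = 5.53e-05), in S23DKO (3.43, adjusted p = 0.00223) and in S4KO (3.65, adjusted p = 0.000712). Between the genotypes at day 4 it had 13.1 and 20.4 CPM in S4KO libraries, 22.2 and 27.0 CPM in S23DKO libraries and 50.6 and 45.7 CPM in WT libraries. Every S4KO library was below every S23DKO library, and these below every WT library. The call of S4KO against WT (-1.53 ± 0.34, adjusted p = 0.0491) was lost without either WT day 4 library (0.162 and 0.0743), S4KO day 4 replicate 1 (0.379), any 1 of the S23DKO day 4 or WT day 0 libraries (0.0591 to 0.0765) and in a fit of these groups alone (0.106). Flt4 (VEGF receptor 3), Nrp1 (a VEGF coreceptor) and Tie1 (the relative of Tek) were also called in WT, at 1.88, 3.08 and -2.73, each at low levels of at most 20.9 CPM. Not all calls among the related receptors in WT were kept when either WT day 0 library was left out.

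Csf1r, a receptor of the Kit and PDGF receptor family known from macrophages and trophoblast, was near absent outside S23DKO. It had 13.4 and 15.7 CPM in S23DKO at day 4 and 3.52 and 10.8 CPM in S23DKO at day 0. WT day 4 libraries had 0 and 0.23 CPM, and no count was seen in WT day 0 or in S4KO. S23DKO was at least 209-fold above WT at day 0, taking 3 counts over the WT group as the floor. At day 4 the difference to WT was 6.97 on the log2 scale (adjusted p = 0.00442, and 0.159 with DESeq2). Trophoblast markers were higher in the same libraries. Their 9 genes summed to 438 to 445 CPM in S23DKO day 4 libraries, against 11.7 to 25.5 CPM in WT day 4 libraries, and 8 of 9 were called higher. Their part in the Csf1r level was not tested.

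Of 10 intracellular effectors 7 were higher at day 4 than at day 0 in WT and none lower (median 0.76, all genes 0.08). In that comparison 43.6% of all genes were called. Without either WT day 0 library 3 were higher, and without WT day 4 replicate 1 the count was 4. With the length and GC correction, under which the median of all genes was -0.12, the count was 3 higher and 1 lower and the effectors' median 0.21. Ptpn11 had the largest rise (1.77 ± 0.24, adjusted p = 0.000404) and kept its call under that correction, while Pik3ca (1.50, adjusted p = 0.000781) and Pik3r1 (1.50, adjusted p = 0.00237), subunits of PI3-kinase, lost theirs (0.20 and 0.37). None of the 10 was called in either knockout against WT at day 4. Of all genes, 1.73% were called there in S4KO and 15.2% in S23DKO, so the S4KO count is what the background gives.

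Feedback genes, which are induced by MAP kinase signalling and restrain it, and the ETS factors it induces ran lower in S23DKO embryoid bodies than in those of WT. In S23DKO against WT at day 4, where 15.2% of all genes were called, 7 of 10 were lower and none higher (median -1.51, all genes -0.03). The count was 7 with RLE size factors and 8 with the length and GC correction, and 1 to 10 when a library was left out. Dusp6, the phosphatase of ERK, had 24.1 and 18.4 CPM in S23DKO day 4 libraries and 130 and 133 CPM in WT day 4 libraries. The fall was 2.63 on the log2 scale (-2.63 ± 0.45, adjusted p = 0.00356). Spry1, a Sprouty inhibitor, had 18.7 and 13.3 CPM in S23DKO and 44.5 and 56.8 CPM in WT (-1.66 ± 0.32, adjusted p = 0.00614, and 0.0695 without S23DKO day 4 replicate 2). The ETS factors Etv1 (-2.30, adjusted p = 0.032) and Etv4 (-1.59, adjusted p = 0.0194) were lower too, and both calls were lost without either S23DKO day 4 library (Etv1 at 0.132 and 0.18, Etv4 at 0.122 and 0.103) or 1 WT day 4 library (Etv1 without replicate 1 at 0.148, Etv4 without replicate 2 at 0.0725). In S4KO against WT at day 4 none of the 10 was called (median -0.10). Only 1.73% of all genes were called there, so this count is what the background gives. Between the knockouts at day 4, 12.3% of all genes were called. S4KO against S23DKO at day 4 had 4 higher and none lower (median 1.39, all genes 0.04), and 0 to 9 higher when a library was left out. These lists respond to other receptors as well, FGF receptors among them.

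Many markers of extraembryonic endoderm were called in the comparisons in which Pdgfra was, though not all ran in its order. Of 15 such genes, 14 were higher and none lower at day 4 in WT (median 5.39, all genes 0.08). In S4KO against WT at day 4, 10 were lower and none higher (median -3.28, all genes -0.03), with 6 to 11 lower when a library was left out (6 without S4KO day 4 replicate 1). In S23DKO against WT, 6 were lower at day 4 (median -1.25), where Pdgfra was not called, and 8 higher at day 0 (median 2.12). The 6 lower became 3 without S23DKO day 4 replicate 1 and 1 without replicate 2. Their summed level was 402 to 649 CPM in S4KO day 4 libraries, 1550 to 1850 CPM in S23DKO day 4 libraries and 1740 to 2090 CPM in WT day 4 libraries. At day 0 it was 421 to 494 CPM in S4KO, 873 to 1020 CPM in S23DKO and 462 to 475 CPM in WT. Much of each sum came from Lama1, Lamb1, Col4a1 and Sparc. At day 4 these averaged 213, 374, 502 and 455 CPM in S23DKO and 168, 337, 287 and 337 CPM in WT. Foxa2, Cubn, Dab2 and Afp, picked with their values in view, averaged 2.06, 50.0, 52.8 and 2.77 CPM in S23DKO at day 4. In WT at day 4 they averaged 37.8, 334, 248 and 47.6 CPM. No counts were seen for Ttr in S4KO day 0, for Afp and Ttr in S23DKO day 0, and for Foxa2 and Ttr in WT day 0. The part of these cells in the Pdgfra level was not tested.

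Gata4, a factor of primitive endoderm, and Gata6 ran in the order of Pdgfra by group mean, and some other genes of the list did not. The genes named next were picked with their values in view. Col4a1 averaged 502 CPM in S23DKO at day 4 and 287 CPM in WT at day 4, and Sparc 455 CPM and 337 CPM in the same groups. Lama1 averaged 38.8 CPM in S4KO at day 4, below its 58.1 CPM in WT at day 0. Gata4 had 3.89 and 3.27 CPM in S4KO at day 4, 18.0 and 15.1 CPM in S23DKO day 4 libraries and 28.7 and 39.9 CPM in those of WT. At day 0 it had 3.15 and 3.53 CPM in S4KO, 6.1 and 8.02 CPM in S23DKO and 1.03 and 1.08 CPM in WT. As for Pdgfra, WT held both the highest and the lowest group. In S4KO against WT at day 4 Gata4 differed by -3.26 ± 0.30 (adjusted p = 0.00055). Gata6 differed there by -3.17 (adjusted p = 0.0119) and Sox7 by -2.61 (adjusted p = 0.0133), each lost without S4KO day 4 replicate 1 (0.0586 and 0.136), and Sox7 also without WT day 4 replicate 1 (0.0564). The Gata4 change with differentiation differed from that of WT by -4.92 ± 0.42 in S4KO (adjusted p = 0.00043) and by -3.79 in S23DKO (adjusted p = 0.00508). By the naming rule the largest falls among these 15 genes in S4KO against WT at day 4 were those of Foxa2 (-5.04, adjusted p = 0.00274) and Cubn (-4.54, adjusted p = 0.0031).

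**Figure D5:**
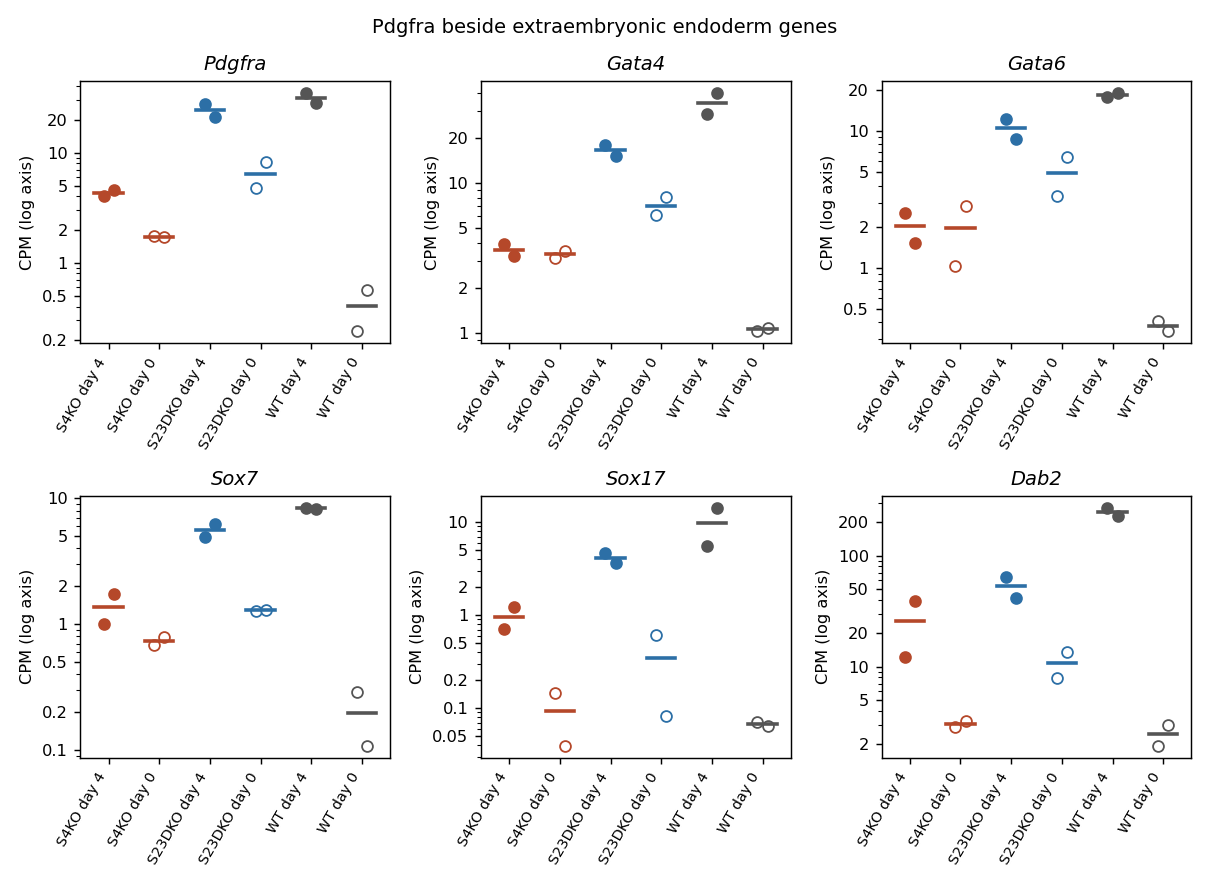
Level in CPM (log axis) of Pdgfra and of the endoderm genes Gata4, Gata6, Sox7, Sox17 and Dab2 in the 6 groups, with 1 point per library and a line at the group mean. In each panel the WT day 4 mean is the highest, and S4KO day 4 lies below S23DKO day 4, as with Gata4 at 3.89 and 3.27 CPM against 18.0 and 15.1 CPM.

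Early mesoderm markers, the other known site of Pdgfra and Kdr, did not all run in 1 direction. Of 14 genes 12 were tested, and the sum of all 14 at day 4 was 23.5 to 24.7 CPM in S4KO libraries and 16.6 to 21.0 CPM in S23DKO libraries, against 171 to 205 CPM in WT libraries. Most of the WT sum was T and Mixl1. In S4KO against WT at day 4, 3 were lower and none higher (Mesp1, Mixl1 and T; median of the list 0.35), and in S23DKO against WT 4 were lower and none higher (median -0.72). Tcf15, a factor of paraxial mesoderm chosen after its values were seen, averaged 10.3 CPM in S4KO at day 4 and 4.22 CPM in WT at day 4 and was not called. T (Brachyury), the T-box factor of nascent mesoderm, averaged at day 4 1.9 ± 2.1 CPM in S4KO, 0.324 ± 0.0607 CPM in S23DKO and 113 ± 15.2 CPM in WT (SD, n = 2 each). Mixl1 averaged 0.836 ± 0.621, 0.0578 ± 0.0817 and 54.3 ± 3.49 CPM in the same groups, and Mesp1 was at least 64.2-fold lower in S4KO, where it had no counts. Kdr at day 4, in contrast, overlapped between all 3 genotypes, and Pdgfra in S23DKO was near WT. No test of the difference between marker and receptor was made.

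Endothelial and blood markers gave no common direction. Of 15 genes 14 were tested, and in S23DKO against WT at day 4, 2 were higher and 5 lower (median -0.80), while in S4KO against WT none was called (median 0.95). The S4KO count was 5 higher and 1 lower with DESeq2, and without S4KO day 4 replicate 2 it was 2 higher. The number lower in S23DKO was 3 without S23DKO day 4 replicate 1 and 1 without replicate 2. The summed level at day 4 was 91.4 to 131 CPM in S4KO, 111 to 141 CPM in S23DKO and 70.0 to 90.6 CPM in WT, and at day 0 it was 142 to 185, 137 to 139 and 173 to 181 CPM in the same order. Fli1 was at most 1.43 CPM in any library, Erg at most 0.746 CPM and Emcn at most 0.0959 CPM, while Pecam1 had 22.2 to 122 CPM and Egfl7 19.2 to 88.2 CPM over the 12 libraries. Cdh5 (VE-cadherin) was high in S23DKO, with 47.2 and 37.9 CPM at day 4 and 8.37 and 8.14 CPM at day 0, and at most 3.2 CPM in any S4KO or WT library. It was higher than in WT at day 4 (6.92 ± 0.80, adjusted p = 0.000405), as was Esam (3.78, adjusted p = 0.000453), another endothelial adhesion gene. Lmo2 (-3.69, adjusted p = 0.00134) and Etv2 (-3.01, adjusted p = 0.0101), factors shared by the endothelial and blood lineages, were lower. S4KO day 4 replicate 2, the library with most Kdr, had more than replicate 1 of Fli1 (1.43 and 0.51 CPM), Tal1 (5.29 and 2.02 CPM), Sox18 (1.8 and 0.887 CPM) and Cdh5 (3.2 and 1.15 CPM), and less of Pecam1 (27.9 and 81.1 CPM). The part of endothelial or blood cells in the Kdr and Tek levels was not tested. Of 8 genes of pericytes and smooth muscle, the known site of Pdgfrb, 0 were higher and 1 lower in S23DKO against WT at day 4, and that call was lost without either S23DKO day 4 library. Germ cell genes, a known site of Kit, had 2 of 8 higher and 0 lower in each knockout against WT at day 4. When a library was left out, 0 to 4 were higher in S4KO (4 without S4KO day 4 replicate 2, 0 without replicate 1 of S4KO or WT day 4) and 1 to 2 in S23DKO.

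Some of the 12 genes around the chromosome 5 cluster were also called, at counts read against the share of all genes called. In WT between the days that share was 43.6%, and the count of neighbours given below is near it. None was called in S4KO or S23DKO against WT at day 4 (medians 0.07 and -0.04), where 1.73% and 15.2% of all genes were. None was called in either change difference to WT (0.15% of all genes in S4KO and 6.1% in S23DKO). At day 0, 3 were higher and 1 lower in S4KO than in WT (median 0.36, all genes 0.01), where 19.6% of all genes were called. In S23DKO 2 were higher than in WT at day 0 (median 0.27, all genes 0.02), where 31.0% of all genes were called. That S23DKO count is below what the background gives. Cep135, a centriole gene, averaged 36.3 CPM in S4KO day 4 libraries, 27.9 CPM in those of S23DKO and 28.3 CPM in those of WT. Its day 0 means were 30.3, 21.5 and 9.42 CPM in the same order of genotypes. As for Kdr and Pdgfra, WT at day 0 was its lowest group, and Cep135 was called between the days in WT (1.58, adjusted p = 0.00149) and against WT at day 0 in S4KO (1.69, adjusted p = 0.00779) and S23DKO (1.19, adjusted p = 0.00991). The call was lost without WT day 0 replicate 1 in S4KO (0.11) and in S23DKO (0.0958), and without replicate 1 of the knockout itself (0.0682 in S4KO and 0.0631 in S23DKO). Clock, a circadian clock gene, averaged 29.3 CPM in S4KO at day 0, 50.2 CPM in S23DKO at day 0 and 13.6 CPM in WT at day 0. Its differences to WT were 1.11 in S4KO (adjusted p = 0.0457, and 0.475 with the length and GC correction) and 1.89 in S23DKO (adjusted p = 0.0042, and 0.0546 without WT day 0 replicate 1). Both genes were picked with their values in view. The count of neighbours called higher at day 0 ran from 0 to 3 in S4KO and from 0 to 2 in S23DKO when a library was left out, with 0 in both without WT day 0 replicate 1 and 0 in S4KO without its own day 0 replicate 1. In WT, 3 were higher and 2 lower at day 4 (median 0.26; 1 higher and 1 lower without either WT day 0 library or without WT day 4 replicate 1), and with the length and GC correction 2 were higher and 5 lower (median -0.65, all genes -0.12). Fip1l1, a polyadenylation factor gene beside Pdgfra, kept to 107 to 152 CPM in all 12 libraries, and Chic2 to 26.9 to 39.9 CPM. Gm42802, annotated antisense within Pdgfra, had no counts in any library.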

How the data were processed

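Counts and FPKM values were available for 12 libraries in 6 groups of 2, grouped by the genotype and day in their titles. Total RNA (500 ng a sample, integrity number above 9.5) went into Illumina's TruSeq kit, version 2, per the labels' protocols. The authors deposited whole-number counts per Ensembl gene ID and FPKM values (fragment numbers divided by transcript length and library size) per gene symbol. The tools Cufflinks, StringTie and DESeq2 and the build mm10 are named without roles or versions, per the submitters' processing notes; aligner, annotation and strand setting are not given in the sources used here, so reads of a gene and of an overlapping gene on the other strand cannot be told apart. Of 32285 gene IDs 127 had no symbol in GENCODE M21, and all 12 FPKM columns matched the count column of the same name best.

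Counts were fitted with edgeR 4.0.16 (R 4.3.3; glmQLFit and glmQLFTest, TMM scaling, filterByExpr, 18693 genes, all 12 libraries and a coefficient for each group). P-values were adjusted after Benjamini and Hochberg over these genes, a standard error is the log2 fold change divided by the square root of F, and an SD over 2 libraries is of low precision. Alternatives used limma 3.58.1, DESeq2 1.42.0, other filters and scalings, a replicate block, and offsets for exon length and GC content (splines of 5 degrees of freedom). The fits were tested on simulated data. Same-numbered libraries were not treated as pairs in the main fit. Their deviations correlated over 0.1 in 2 of 15 pairs of groups, with a highest r of 0.339, so handling by replicate number is not excluded.

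Members and gene lists were chosen with earlier results of these data known. From each list other than the members the text names at most 4 called genes a comparison, by size of change; other genes named from a list, those in the plot of Pdgfra with endoderm genes included, were chosen after their values were seen. Likeness used genes of at least 1 CPM. Promoters are from RefSeq (GRCm38.p6), which matched 4 of the 5 members, and Pdgfrb's is not used here. Tables and figures were made with Python 3.11.15, pandas 2.3.3 and matplotlib 3.10.9.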

Additional observations from a re-analysis of the deposited data

Results flagged for a closer look

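The change of Pdgfra between day 0 and day 4 differed between genotypes by a test of the difference itself. In S23DKO the log2 change was smaller than in WT (difference -4.37, adjusted p = 0.00699 by edgeR's quasi-likelihood test), and in S4KO it was smaller than in WT (difference -4.98, adjusted p = 0.00412). In both, the knockout was above WT at day 0, and the WT day 0 libraries, which both differences share, hold 10 and 26 Pdgfra counts. S4KO also stood below WT at day 4, while for S23DKO no difference was called there. Without both WT day 0 libraries neither difference could be fitted.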

How the results depend on the processing

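The 18 pairs of gene and comparison with a log2 fold change under 0.5 in size were left out of the next counts. Some of these 18 also turned sign, such as Pdgfrb between the days in S4KO (-0.35 to 1.36 over the alternatives). Over the other 42 results and 988 repeats under other settings, 885 kept direction and side of the threshold. Among the rest 46 lost a call, 52 gained one and 5 turned sign. None of the turned values was called: Kdr in S4KO against S23DKO at day 4 (-0.06 to 1.25 over the libraries left out) and in the difference of their changes (-0.03 to 1.29), both without S4KO day 4 replicate 2, Pdgfrb in that change difference without S4KO day 0 replicate 2 (0.41, range -1.30 to 0.41), Kit between the days in WT with the length and GC correction (-0.27), and Kit between the days in S23DKO without S23DKO day 0 replicate 1 (0.00, range -1.09 to 0.00). The cause of these was not tested. Counts of called members moved as follows. For S23DKO day 4 against day 0, 2 became 1 with limma unfiltered or only these groups and 3 with no filter or DESeq2 (Kdr). For S4KO day 4 against day 0, 1 became 3 with no filter or DESeq2, 2 with the length and GC correction or, added after seeing the data, without the WT day 0 libraries, and 0 with limma unfiltered or only these groups. At day 0, S23DKO against WT gave 4 with no filter and 1 with limma unfiltered in place of 2. Pdgfrb was called there as well with DESeq2, only these groups or the length and GC correction, among others. Also at day 0, S4KO against WT gave 0 on log2(FPKM + 1) and 1 on log2(FPKM + 0.1) in place of 3. S4KO against S23DKO at day 0 gave 0 in place of 1 with limma on log2(FPKM + 1), limma unfiltered or only these groups. At day 4, S23DKO against WT gave 1 in place of 0 (Pdgfrb) with the replicate block and 8 other settings, and S4KO against S23DKO 2 in place of 1 with 6 settings. The change difference of S23DKO to WT gave, in place of 1, 2 with DESeq2, a filter at 1 CPM or only these groups, 3 with no filter and 0 with limma unfiltered. Leaving out each library gave 2 to 3 in WT between the days, 0 to 2 in S23DKO and 0 to 2 in S4KO; at day 0, 1 to 3 for S23DKO and 0 to 3 for S4KO against WT, and 0 to 1 for S4KO against S23DKO; at day 4, 0 to 1 for S23DKO and 0 to 1 for S4KO against WT, and 1 to 2 for S4KO against S23DKO; 1 to 2 for the change difference of S23DKO to WT. The lone library of a reduced group was taken to vary as the other groups do. The replicate number as a block, with numbers not known to pair the libraries, changed the number of called members in S23DKO against WT at day 4 only. The length and GC correction shifted the median of all genes by -0.20 in WT between the days and by -0.11 in S23DKO against WT at day 0, and by 0.11 and 0.12 in the changes against WT; the share of calls that were higher in WT at day 4 went with it to 40.0% in place of 54.5%. Depth limits the WT day 0 values of Kdr and Pdgfra, at 10 to 26 counts a library.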
